A study of Homo sapiens with 6 samples.

Results

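The protein arginine methyltransferases are the enzymes that put methyl groups on arginine side chains. The 10 genes described here are 8 of these enzymes (PRMT1, PRMT2, PRMT3, CARM1, PRMT5, PRMT6, PRMT7 and PRMT9) and 2 partners of PRMT5 (WDR77 and CLNS1A). They were chosen by symbol from a table of 28265 genes, and all 10 were found and passed the low-count filter that left 14315 genes for testing. RNA was sequenced in 6 libraries of LN229 cells, an established line from a human glioblastoma. Of these, 3 are labelled wild type and are called control here, although NC stands in their titles without explanation. The other 3 carry the label TRIM25 knockdown, and the series design names shTRIM25, a short hairpin RNA. TRIM25 is an E3 ubiquitin ligase. Whether the control cells carried a hairpin, how many hairpins or clones were used, and whether each library had its own culture are not in the labels. A p-value here therefore sets a difference between groups against variation among these libraries only, which may be technical.

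All of these enzymes take the methyl group from S-adenosylmethionine. Type I enzymes (PRMT1, PRMT2, PRMT3, CARM1, PRMT6) make asymmetric dimethylarginine, type II enzymes (PRMT5, PRMT9) make symmetric dimethylarginine, and the type III enzyme PRMT7 stops at monomethylarginine. Common substrates are histones and RNA-binding proteins rich in arginine and glycine, and PRMT5 also methylates the Sm proteins of the splicing machinery. PRMT5 is widely studied in glioblastoma as a drug target. The series title places PRMT1 and MYC downstream of TRIM25 and the splicing factor NONO. The values here are mRNA totals per gene symbol, which show neither splice forms nor protein. An unchanged total therefore does not test that link.

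Total counts ran from 11349865 to 16404725 per library. Labelled knockdown replicates 1 and 3 differed more than any other pair within a group (chi-square per degree of freedom 8.54, against 1.95 to 4.94 in the others). TRIM25 itself rose in the group labelled knockdown, with 82.9 ± 4.84 against 35.55 ± 0.243 CPM (counts scaled to library size, with sizes adjusted by TMM; SD, n = 3 each). On the log2 scale that is 1.22 ± 0.07 (SE; edgeR adjusted p = 3.23e-09). Directions below are therefore given by label only, and none can be read as an effect of less TRIM25 mRNA. VIM, NES, CD44 and SOX2, markers of such lines, were expressed at 119.4 TPM or more in every library, while GFAP was at 0.201 TPM or less. EGFR, also on that marker list, was lower at 13.3 to 16.8 TPM. Markers of other cell types were mostly near 0, with the immune marker AIF1 at 0 throughout, but CD68, SYT1 and SNAP25 were detected (17.6 to 116.0 TPM). NES, CD68 and SYT1 rose and SOX2 and SNAP25 fell by the test used below (CD68 by 0.49 on the log2 scale, SOX2 by 0.66), and their part in the results was not tested.

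Upstream sequence is shown for the most abundant enzyme of type I (PRMT1), the most abundant of type II (PRMT5) and the member that passed the test (PRMT3). Each is the 250 bases before the RefSeq gene start on GRCh38.p14, read 5′ to 3′ on the gene's strand, and some annotated transcripts start within it. The stretches are chr19:49677021-49677270 (plus strand) for PRMT1, chr14:22929377-22929626 (minus strand) for PRMT5 and chr11:20387466-20387715 (plus strand) for PRMT3. Capitals mark exact matches, on either strand, to the E-box bound by MYC (CACGTG), the CCAAT box (CCAAT), the GC box (GGGCGG) and the TATA element (TATAAA).
PRMT1: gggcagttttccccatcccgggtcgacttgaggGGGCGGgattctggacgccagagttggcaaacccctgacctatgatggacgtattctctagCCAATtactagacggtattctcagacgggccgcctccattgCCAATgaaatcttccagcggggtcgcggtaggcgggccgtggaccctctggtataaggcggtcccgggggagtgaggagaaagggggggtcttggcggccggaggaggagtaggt
PRMT5: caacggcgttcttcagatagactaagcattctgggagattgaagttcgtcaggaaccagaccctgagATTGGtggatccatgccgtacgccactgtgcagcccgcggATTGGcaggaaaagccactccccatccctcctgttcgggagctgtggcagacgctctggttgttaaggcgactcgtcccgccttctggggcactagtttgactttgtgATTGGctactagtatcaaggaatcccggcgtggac
PRMT3: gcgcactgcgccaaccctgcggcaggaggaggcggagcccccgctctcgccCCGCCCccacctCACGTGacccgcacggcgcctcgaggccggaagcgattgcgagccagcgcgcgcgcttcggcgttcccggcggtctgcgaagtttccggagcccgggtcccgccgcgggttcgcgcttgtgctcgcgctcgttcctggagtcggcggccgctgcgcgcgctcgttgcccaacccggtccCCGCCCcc
PRMT3 held the one E-box found among the members, 187 bases before the start. Of all 35116 promoters in the table, 6.345% hold one in a window of this length. CCAAT boxes were found in PRMT1 (2) and PRMT5 (3), against 32.0% of all promoters. GC boxes were found in 7 of the 10 members (42.6% of all promoters), and the TATA element in 0 (10.7% of all promoters). The members have 12 promoters, as CARM1 and PRMT7 have 2 each, so a count of genes and a share of promoters are not like for like. GC content in the 12 ran from 51.2% to 81.6%, against a median of 58.0% over all promoters. A match describes letters only.

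Of the 10 members, 9 missed the threshold for a difference between the groups, PRMT9 narrowly. PRMT3 rose by 0.31 on the log2 scale (labelled knockdown minus control throughout) and was the single member past the threshold (a quasi-likelihood test in edgeR, with p adjusted over all tested genes by Benjamini-Hochberg, under 0.05). No call was downwards (0 members fell), and PRMT9 was the one other member with an unadjusted p under 0.05. Over all tested genes 23.3% passed, 12.2% upwards and 11.0% downwards, so 1 of 10 is not above the background. The median log2 fold change of the 10 members was 0.06, against -0.0038 for all tested genes, and the median size of the change was 0.07, against 0.15. The members and all tested genes were not matched for expression level, so these sizes are not like for like. The 95% interval lay within 1.5-fold in either direction for all 10 members.

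**Figure D1:**
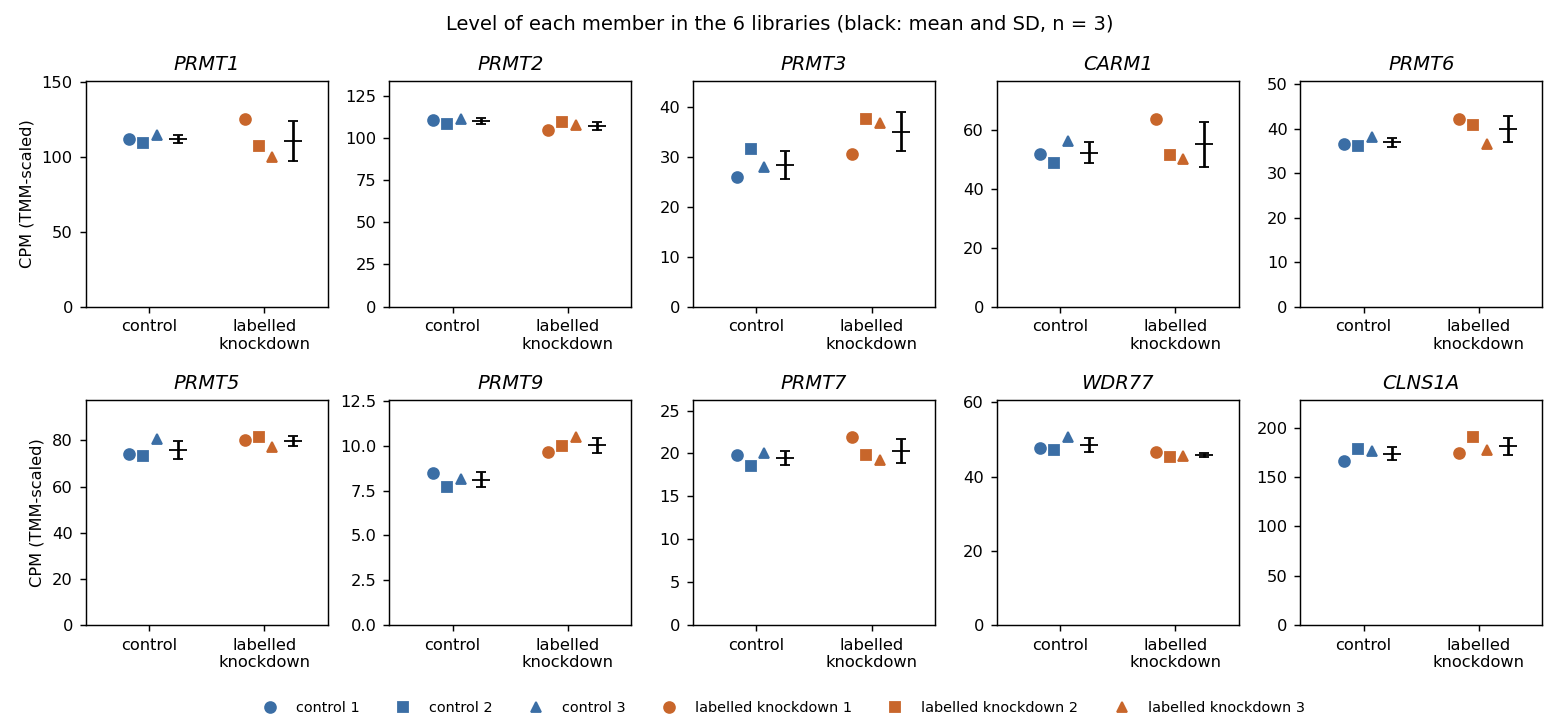
Level of each member in CPM (TMM-scaled, axes from 0) in 3 control libraries (blue) and 3 libraries labelled knockdown (orange), with symbols for the replicate and black bars for mean and SD. PRMT9 is higher and WDR77 lower in every labelled knockdown library than in any control library; the other 8 members overlap.

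PRMT1 makes most of the asymmetric dimethylarginine in human cells. Its raw counts were 1777, 1505 and 1805 in control replicates 1, 2 and 3 and 1504, 1210 and 1620 in labelled knockdown replicates 1, 2 and 3. Scaled to library size these were 111.8, 109.2 and 114.2 CPM against 125.3, 106.9 and 99.4 CPM. The control libraries lay close together, and the libraries labelled knockdown fell on both sides of them. The log2 fold change of PRMT1 was -0.02 ± 0.08 (SE; 95% interval -0.18 to 0.14; edgeR adjusted p = 0.890). Among the libraries labelled knockdown its coefficient of variation was 12.05%, against 2.65% from counting reads alone. PRMT1 has a short gene model (1568 bp), and the counts of short and long genes drifted in opposite directions between libraries. With that length trend removed the variation was 7.11% in that group, while among the controls it rose from 2.255% to 3.79%. The log2 fold change of PRMT1 was then 0.07 (edgeR adjusted p = 0.428), so the sign turned and the test still missed the threshold. PRMT1 shares 366 bp of exon with ADM5 on the same strand, which was at 3.64 and 3.01 CPM. Without labelled knockdown replicate 1 the log2 fold change of PRMT1 was -0.11 (edgeR adjusted p = 0.164).

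PRMT2, a weakly active type I enzyme that also serves as a nuclear receptor coactivator, was at 110.0 ± 1.74 CPM in control and 107.2 ± 2.52 CPM in labelled knockdown libraries (SD, n = 3 each). Its values of 110.5, 108.0 and 111.4 CPM overlapped with 104.5, 109.4 and 107.7 CPM, and its log2 fold change was -0.04 ± 0.06 (SE; edgeR adjusted p = 0.692). PRMT2 had the longest gene model of the 10 (7945 bp). With the length trend removed its log2 fold change was -0.15 and passed the threshold (edgeR adjusted p = 0.0439), and with length and GC content removed together it was -0.06 and did not (adjusted p = 0.298). Removing the length trend raised its coefficient of variation in both groups. It went from 1.585% to 4.30% in control and from 2.35% to 3.54% in labelled knockdown libraries.

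PRMT3 is the cytosolic type I enzyme that methylates the ribosomal protein RPS2. Its raw counts were 413, 435 and 442 in control replicates 1 to 3 and 368, 427 and 602 in labelled knockdown replicates 1 to 3. The scaled values were 26.0, 31.55 and 28.0 CPM against 30.65, 37.7 and 36.9 CPM. Labelled knockdown replicates 2 and 3 lay above all controls, while replicate 1 lay below control replicate 2, so the groups overlapped. The log2 fold change was 0.31 ± 0.09 (SE; 95% interval 0.11 to 0.50; edgeR adjusted p = 0.0253), a 1.24-fold difference. Leaving out control replicate 1 or 3 ended the call (edgeR adjusted p = 0.103 and 0.0816), as did leaving out labelled knockdown replicate 2 or 3 (0.130 and 0.0716). Without labelled knockdown replicate 1 it was 0.40 on the log2 scale (adjusted p = 0.00046). With the length trend removed it was 0.35 (adjusted p = 0.0059).

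CARM1, which methylates histone H3 and transcriptional coactivators, was at 52.1, 49.0 and 56.4 CPM in the control libraries. In the libraries labelled knockdown it was at 64.05, 51.7 and 50.1 CPM. Replicate 1 stood above every other library and the remaining labelled knockdown libraries lay within the control range. The log2 fold change was 0.07 ± 0.09 (SE; edgeR adjusted p = 0.604), and it was -0.04 without labelled knockdown replicate 1. CARM1 shares 886 bp of exon with YIPF2 on the opposite strand, and the strand setting of the counting is not given, so reads there cannot be told apart. YIPF2 had a log2 fold change of -0.02 ± 0.08 (SE).

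PRMT6, a nuclear enzyme that methylates histone H3, was at 36.7, 36.2 and 38.1 CPM in control and 42.3, 40.8 and 36.6 CPM in labelled knockdown libraries. Replicates 1 and 2 of the labelled knockdown lay above the controls and replicate 3 within them. Its log2 fold change was 0.11 ± 0.08 (SE; 95% interval -0.06 to 0.27; edgeR adjusted p = 0.341). With length and GC content removed together it was 0.16 and passed (adjusted p = 0.0473).

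PRMT5, the main type II enzyme, works as a complex with WDR77. Its raw counts were 1180, 1008 and 1271 in control replicates 1 to 3 and 964, 921 and 1258 in labelled knockdown replicates 1 to 3. Scaled, these were 74.2, 73.1 and 80.4 CPM against 80.3, 81.4 and 77.2 CPM, so that control replicate 3 lay among the libraries labelled knockdown. The log2 fold change was 0.07 ± 0.07 (SE; 95% interval -0.07 to 0.20; edgeR adjusted p = 0.490). It was 0.14 and passed with length and GC content removed together (adjusted p = 0.0187). PRMT5 shares 938 bp of exon with the antisense gene PRMT5-AS1, which had at most 4 counts in any library.

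WDR77, also known as MEP50, is the subunit that holds substrates for PRMT5. Its raw counts were 757, 650 and 800 in control replicates 1 to 3 and 558, 513 and 744 in labelled knockdown replicates 1 to 3. The scaled values were 47.6, 47.15 and 50.6 CPM against 46.5, 45.3 and 45.6 CPM. Every labelled knockdown library lay below every control library, by a narrow margin, but with the length trend removed the groups overlapped (47.8, 46.3 and 48.9 against 45.95, 46.1 and 47.2 CPM). In CPM without that correction the groups did not overlap in 37.3% of all tested genes (18.3% higher, 19.0% lower), and in 2 of the 10 members, PRMT9 (higher) and WDR77 (lower). With the length trend removed PRMT5, PRMT6 and PRMT9 were higher and PRMT2 lower in every labelled knockdown library than in any control. The other members then overlapped, and the share of all genes was not computed on that scale. The log2 fold change of WDR77 was -0.08 ± 0.07 (SE; 95% interval -0.22 to 0.06; edgeR adjusted p = 0.414). It was -0.038 with the length trend removed and -0.0034 with length and GC content removed together. WDR77 shares 350 bp of exon with ATP5PB on the opposite strand, and ATP5PB differed by -0.07 ± 0.06 (SE) in log2 terms. WDR77 also shares 673 bp on its own strand with AL390195.1, which is not analysed here.

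CLNS1A, also known as pICln, brings Sm proteins to PRMT5 for methylation. It was at 166.3, 177.9 and 176.8 CPM in control and 174.8, 190.4 and 177.8 CPM in labelled knockdown libraries. The groups overlapped, and the log2 fold change was 0.06 ± 0.06 (SE; edgeR adjusted p = 0.500). Of the partners outside the 10 genes, the adaptor genes COPRS and RIOK1 had log2 fold changes of -0.04 ± 0.08 and 0.18 ± 0.08 (SE). Neither passed (edgeR adjusted p = 0.750 and 0.109), although RIOK1 was higher in all 3 libraries labelled knockdown than in any control. So were 18.3% of all tested genes.

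PRMT9, the other type II enzyme, methylates the splicing factor SF3B2. It had the fewest reads of the 10, with 135, 106 and 129 counts in control replicates 1 to 3 and 116, 113 and 171 in labelled knockdown replicates 1 to 3. Scaled, these were 8.49, 7.69 and 8.16 CPM against 9.66, 9.99 and 10.5 CPM, so the groups did not overlap. The log2 fold change was 0.31 ± 0.11 (SE; 95% interval 0.08 to 0.54). It was as large as that of PRMT3 but missed the threshold (edgeR adjusted p = 0.0529). Reads alone give a coefficient of variation of about 9.04% in the control libraries for PRMT9, against 4.82% for PRMT3. The variation of PRMT9 seen was smaller, at 4.97% in control and 4.155% in labelled knockdown libraries (8.78% from reads alone). The gap between its groups therefore looks firmer than the reads allow. Among 13 alternative fits PRMT9 passed only without labelled knockdown replicate 1 (edgeR adjusted p = 0.0328), where 33.8% of all tested genes passed. In the other fits without 1 library the edgeR adjusted p ran from 0.0676 to 0.175. It was 0.120 with the replicate number as a block, and the DESeq2 adjusted p was 0.160.

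PRMT7, the type III enzyme, was at 19.9, 18.6 and 20.1 CPM in control and 21.9, 19.8 and 19.3 CPM in labelled knockdown libraries. The groups overlapped, with a log2 fold change of 0.05 ± 0.09 (SE; edgeR adjusted p = 0.697), which was 0.0040 without labelled knockdown replicate 1 and 0.014 with the length trend removed. PRMT7 shares 239 bp of exon with SMPD3 on the opposite strand, which had at most 2 counts. PRMT8, an enzyme of this family found mainly in brain, had 1 read in labelled knockdown replicate 1 and 0 in the other 5 libraries.

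**Figure D2:**
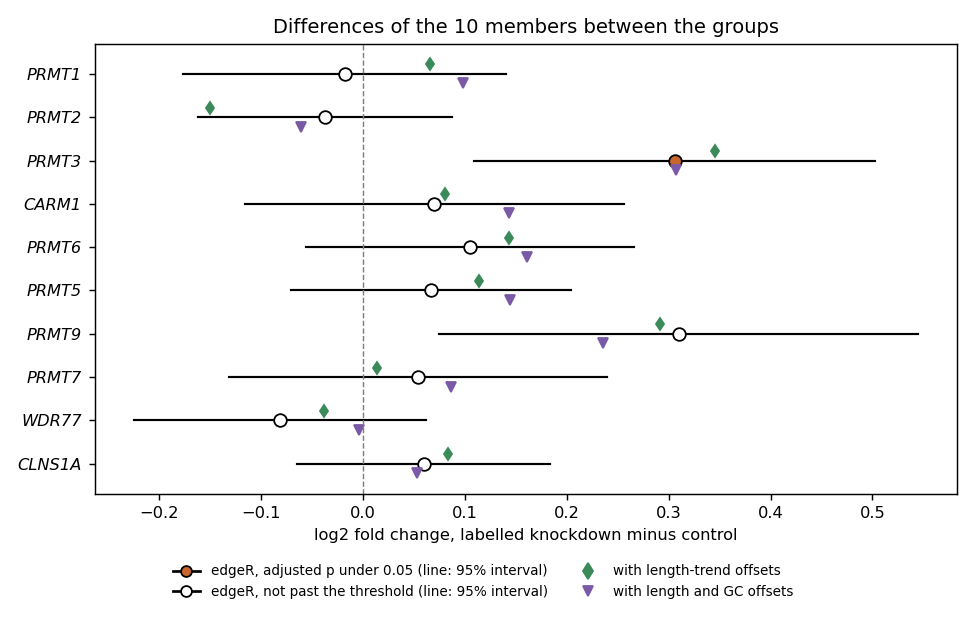
Log2 fold change of each member (labelled knockdown minus control; circles, with 95% intervals from edgeR) and the value after removing trends on gene length (diamonds) or on length and GC content (triangles). PRMT3 (0.31) is the one filled circle; PRMT9 has the same size and a wider interval, and the other 8 intervals include 0.

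Levels of different genes were compared in TPM, the authors' length-scaled value. PRMT1 was the most abundant of the 10 in every library, at 197.2 ± 5.46 TPM in control and 201.6 ± 18.5 TPM in labelled knockdown libraries (SD, n = 3 each). CLNS1A followed at 152.9 ± 2.75 and 165.1 ± 9.95 TPM, then PRMT5 at 87.9 ± 3.74 and 95.5 ± 2.39 TPM. WDR77 ranged from 50.8 to 54.1 TPM. The next 4, CARM1, PRMT6, PRMT2 and PRMT3, lay between 26.9 and 51.5 TPM over all libraries, and their ranges overlapped from neighbour to neighbour. CARM1 exceeded WDR77 in 1 library, and PRMT3 exceeded PRMT2 in 1 library. PRMT7 (10.5 to 12.5 TPM) and PRMT9 (5.02 to 7.32 TPM) were the least abundant in every library. PRMT1 ranked above 93.6% of tested genes by mean TPM and PRMT9 above 23.8%.

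As a share of the summed TPM of the 8 enzymes, PRMT1 made up 44.3%, 43.8% and 43.45% in the control libraries. In labelled knockdown replicates 1, 2 and 3 its share was 44.55%, 40.9% and 40.2%. Replicate 1 lay above the controls and the other 2 below them. The mean share was 43.85% ± 0.425 against 41.9% ± 2.34 (SD, n = 3 each), a difference of -1.97 percentage points (two-sided exact permutation test, p = 0.40). With 3 libraries against 3 this test cannot go below 0.10. The PRMT1 difference was -0.676 points with the length trend removed, -3.30 without labelled knockdown replicate 1 and -1.13 without labelled knockdown replicate 3.

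PRMT5 held 19.55% ± 0.464 of the enzyme TPM in control and 19.9% ± 0.991 in labelled knockdown libraries. The type I enzymes together held 76.8% ± 0.456 and 76.2% ± 1.11 (SD, n = 3 each; two-sided exact permutation test, p = 0.40). The shares of PRMT6 and PRMT9 were higher in every labelled knockdown library than in any control. For comparison, the groups did not overlap in CPM for 37.3% of all tested genes. A share also moves with the other enzymes. In CPM, PRMT6 in labelled knockdown replicate 3 (36.6) lay within the controls (36.2 to 38.1), while PRMT9 stayed apart. PRMT6 held 8.68% ± 0.01275 against 9.07% ± 0.245 and PRMT9 1.19% ± 0.0582 against 1.43% ± 0.150. Both reached the smallest p the test allows (exact permutation, p = 0.10; adjusted over the 8 enzymes, 0.40). Reads alone give a coefficient of variation in control libraries of about 4.23% for PRMT6 and 9.04% for PRMT9. The control SDs of both shares are smaller than that and understate the scatter. PRMT3 held 6.41% ± 0.731 and 7.69% ± 1.26, with groups that overlapped (exact permutation, p = 0.20; adjusted 0.533). Its difference of 1.27 points was 1.997 without labelled knockdown replicate 1 and 0.840 without labelled knockdown replicate 3. The shares of PRMT2, CARM1 and PRMT7 differed by -0.458, 0.162 and 0.0210 percentage points, with exact permutation p values from 0.30 to 0.80. The PRMT2 difference was -1.36 points with the length trend removed, -0.725 without labelled knockdown replicate 3 and -0.0930 without labelled knockdown replicate 1. The differences of CARM1 and PRMT7 turned negative with the length trend removed (-0.0284 and -0.116).

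**Figure D3:**
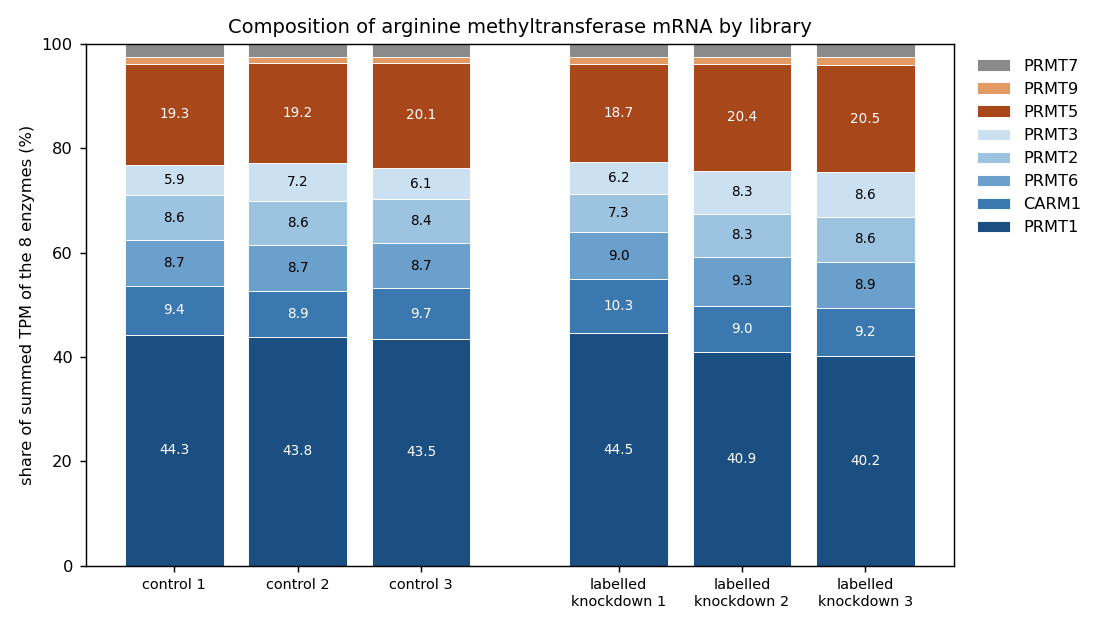
Share of each enzyme in the summed TPM of the 8 enzymes (percent, bars stacked to 100) in each library; type I enzymes are blue, type II orange and type III grey. PRMT1 takes 40.2% to 44.55% and PRMT5 18.7% to 20.5% in all 6 libraries.

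The summed enzyme TPM of the controls was 456.4, 436.9 and 456.1, and that of the other group 498.4, 480.3 and 463.3. All 3 labelled knockdown sums exceeded all control sums, a difference of 0.10 on the log2 scale (two-sided exact permutation test, p = 0.10, the smallest possible). This separation was lost with TMM-scaled counts per kilobase in place of TPM. The sums were then 160.9, 159.0 and 167.6 for the controls and 179.3, 166.8 and 157.7 for labelled knockdown replicates 1 to 3, with replicate 3 the lowest of all 6 libraries. The log2 difference was 0.05 on that scale (exact permutation, p = 0.70). With the length trend removed as well it was 0.09, and the groups were again apart (exact permutation, p = 0.10).

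WDR77 was lower relative to PRMT5 in every library labelled knockdown. The ratio of WDR77 to PRMT5 in TPM was 0.602, 0.606 and 0.591 in the control libraries. It was 0.544, 0.523 and 0.555 in the libraries labelled knockdown. The controls lay close together and above all 3 libraries labelled knockdown. Reads alone give a coefficient of variation of about 3.70% for WDR77 and 2.96% for PRMT5 in the control libraries. The control ratios (0.600 ± 0.00762, SD) scattered less than that, so their closeness overstates the precision of the ratio. How many other gene pairs separate the groups was not computed. On the log2 scale the difference was -0.15 (two-sided exact permutation test, p = 0.10, the smallest possible), and leaving out any 1 library gave -0.17 to -0.13. Since the ratio is taken within a library, scaling between libraries does not enter it, and with the length trend removed it was -0.15. The ratio of CLNS1A to PRMT5 was 1.74 ± 0.0947 in control and 1.73 ± 0.0646 in labelled knockdown libraries (SD, n = 3 each; exact permutation, p = 0.90). These ratios compare mRNA, not subunits of the complex.

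**Figure D4:**
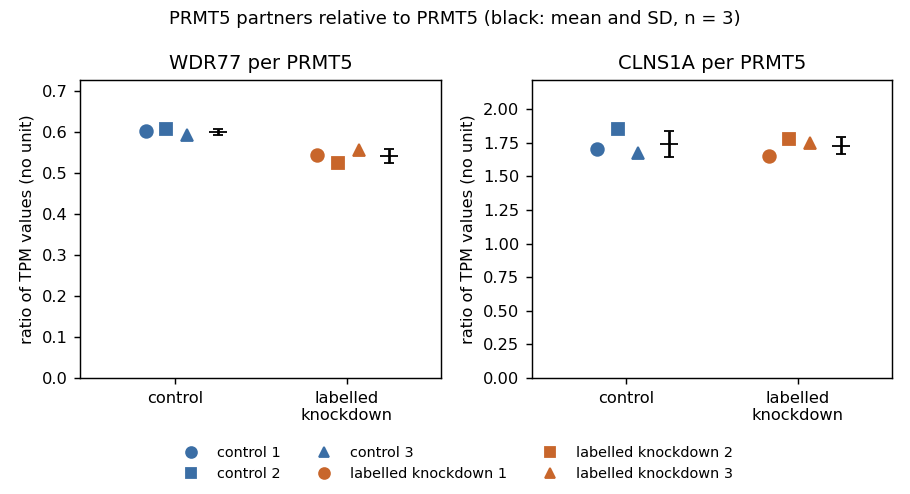
Ratio of WDR77 (left) and CLNS1A (right) to PRMT5 in TPM, by library, on axes from 0, with black bars for mean and SD. The WDR77 ratio is 0.591 to 0.606 in the controls and 0.523 to 0.555 in the libraries labelled knockdown, while the CLNS1A ratios overlap.

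The genes that supply, regulate, recruit and receive arginine methylation were grouped in 7 lists of 103 genes, of which 91 were tested. Of these 10 rose, 8 fell and 73 did not pass (19.8%, against 23.3% of all tested genes). Among 15 tested genes of the methionine cycle and of methylthioadenosine salvage, 1 rose and 2 fell (median log2 fold change 0.02). MTR, the methionine synthase, rose by 0.24 on the log2 scale. APIP and ADI1, which act in the salvage of methylthioadenosine, fell by 0.35 and 0.28. With the length trend removed MTR was at 0.10 and did not pass (edgeR adjusted p = 0.1696). The MTR call also needed control replicates 2 and 3 and both labelled knockdown replicates 2 and 3 (edgeR adjusted p up to 0.127 without one of them), and the APIP call was lost without control replicate 3 (0.0524). MAT2A, the enzyme that makes S-adenosylmethionine, differed by 0.04 ± 0.05 (SE) in log2 terms. MTAP, whose loss in some tumours lets the PRMT5 inhibitor methylthioadenosine accumulate, was expressed at 99.1 ± 4.04 CPM in control and 109.1 ± 9.66 CPM in labelled knockdown libraries (SD, n = 3 each; edgeR adjusted p = 0.166).

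Of 19 tested Sm proteins and SMN complex genes, which act downstream of PRMT5 and CLNS1A in the assembly of spliceosomal particles, 3 rose and 1 fell (median -0.02). LSM11, a component of the U7 particle, rose by 0.41, GEMIN5 by 0.26 and DDX20 by 0.24 on the log2 scale, and the Sm gene SNRPG fell by 0.28. None of these calls held in every fit without a library. All 4 were lost without control replicate 3 and without labelled knockdown replicate 2. The calls of GEMIN5, DDX20 and SNRPG were also lost without control replicate 2. The call of DDX20 was lost without labelled knockdown replicate 3 or with DESeq2 (adjusted p = 0.06515). Over the fits without 1 library the edgeR adjusted p reached 0.08225 for LSM11, 0.110 for GEMIN5, 0.190 for DDX20 and 0.115 for SNRPG. SNRPG and, in the next list, PABPC1 have near-identical pseudogene copies, so their values are uncertain. SMN1 and SMN2, which are near-identical copies, were listed at 0 in all 6 libraries, so SMN was not measured.

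Of 34 tested RNA-binding substrates rich in arginine and glycine, 3 rose and 4 fell (median 0.04). SERBP1, an mRNA-binding protein, rose by 0.22 and the poly(A)-binding protein gene PABPC1 by 0.16 on the log2 scale. The nuclear poly(A)-binding protein gene PABPN1 fell by 0.35, with 56.5 ± 2.47 CPM in control and 44.4 ± 1.07 CPM in labelled knockdown libraries (mean ± SD of 3; edgeR adjusted p = 0.00144), and the mRNA export factor gene ALYREF by 0.24. With the length trend removed SERBP1 was at 0.13 and still passed, and ALYREF was at -0.13 and did not (edgeR adjusted p = 0.0240 and 0.0740). Leaving out control replicate 2, control replicate 3 or labelled knockdown replicate 2 ended the calls of PABPC1 and ALYREF, and leaving out labelled knockdown replicate 3 ended that of ALYREF as well (edgeR adjusted p up to 0.0904 and 0.176). NONO, named in the series title, was at a log2 fold change of -0.05 ± 0.05 (SE), and MYC, which is in no list, at 0.05 ± 0.09 (SE). Neither passed (edgeR adjusted p = 0.532 and 0.690).

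Of 8 coactivators that work with CARM1 and PRMT1 on chromatin, 3 rose and 0 fell (median 0.17). That is 37.5% of a list of only 8 genes, against 23.3% of all tested genes (12.2% upwards). Whether the list differs from that background was not tested. EP300 and CREBBP, the histone acetyltransferases that CARM1 methylates, rose by 0.37 each in log2 terms, EP300 going from 119.4 ± 19.6 to 154.7 ± 11.7 CPM and CREBBP being at 78.25 ± 9.03 and 100.7 ± 6.52 CPM (mean ± SD of 3). SMARCC1, a remodelling subunit that CARM1 also methylates, rose by 0.31. The tested genes of this list have a median length of 7924 bp, against 2968 bp over all genes with a count. With the length trend removed the list's median was 0.06. EP300, CREBBP and SMARCC1 were then at 0.25, 0.22 and 0.24 and still passed (edgeR adjusted p = 0.0064, 0.0065 and 0.0019). In that fit 25.7% of all tested genes passed.

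Of 5 partners and regulators, 0 rose and 1 fell. BTG2, an antiproliferative protein that binds PRMT1, fell by 0.51 on the log2 scale, with 11.0 ± 0.364 CPM in control and 7.79 ± 0.552 CPM in labelled knockdown libraries (mean ± SD of 3; edgeR adjusted p = 0.0037). Of 8 tested readers of methylarginine and enzymes that remove or degrade it, 0 passed in edgeR, and 3 had an unadjusted p under 0.05. DESeq2 and limma-voom also called 0 of these 8, but 1 passed with RLE factors. With the length trend removed, or with length and GC content removed, 2 passed. Fits without the low-count filter or without 1 library test another set of genes, so calls there are out of the 13 listed. Of these 13, 2 passed without the filter and 2 without labelled knockdown replicate 1. A single gene passed without control replicate 2 or without labelled knockdown replicate 2 or 3. Of the 2 tested arginine methyltransferases outside the 10 genes, edgeR, DESeq2 and limma-voom called 0, and 0 had an unadjusted p under 0.05.

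**Figure D5:**
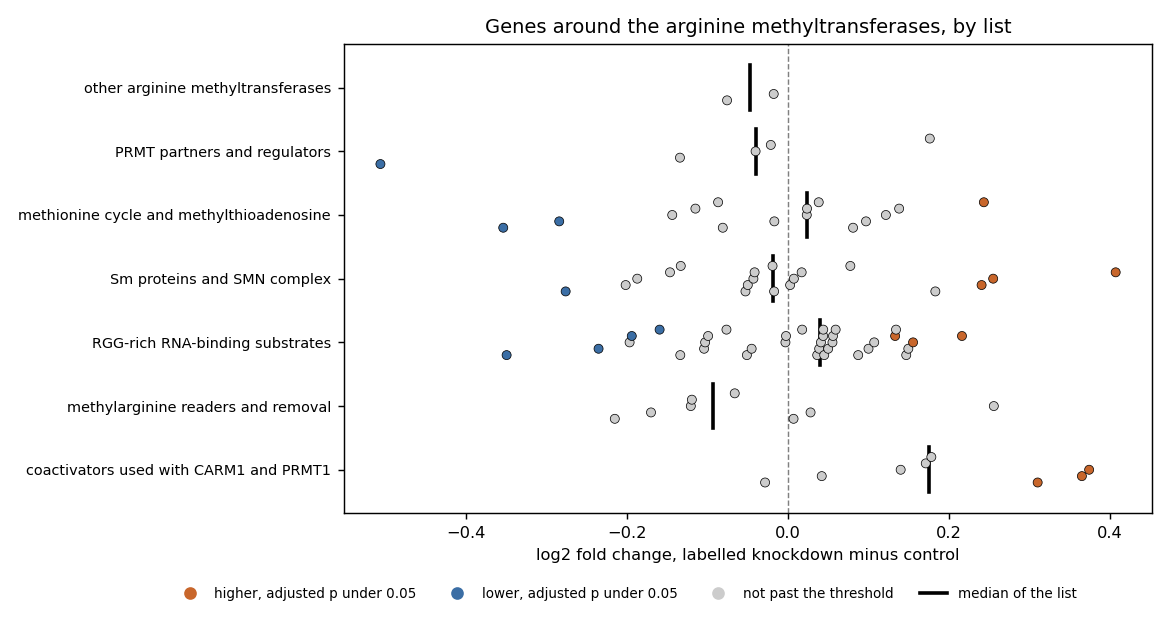
Log2 fold change (labelled knockdown minus control) of each tested gene of the 7 lists; orange and blue points passed the test upwards and downwards, grey points did not, and black bars are list medians. The list medians run from -0.09 for the readers to 0.17 for the coactivators.

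The 3 tested genes whose pattern over the 6 libraries lay nearest to that of PRMT3 were SLC22A15, GLRB and FAM133A. Their root mean square differences in centred log2 CPM were 0.034, 0.034 and 0.046. Their log2 fold changes were 0.33, 0.29 and 0.31, and none passed (edgeR adjusted p = 0.0735, 0.140 and 0.0582).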

How the data were processed

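Per the labels' protocols, the 6 LN229 libraries were made from total RNA with a stranded kit. FastQC, MultiQC, Trim Galore, HISAT2 and hg19 are named, without versions, per the submitters' processing notes. Which program counted the reads, with what strand setting and annotation, is not given in the sources used here. Per the file headers, the authors deposited a raw count, an FPKM and a TPM for each of 28265 gene symbols and library. FPKM was used only to recover gene lengths.

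Counts were tested with edgeR 4.0.16 (TMM, filterByExpr, quasi-likelihood, group term only) and Benjamini-Hochberg adjustment over 14315 genes at 0.05. CPM used TMM-scaled library sizes. TPM shares and ratios were compared with two-sided exact permutation tests. Alternatives were DESeq2 1.42.0, limma-voom (limma 3.58.1), RLE factors, no filter, a replicate block, each library left out, and offsets from trends on gene length (lowess, span 0.3). Offsets on length and GC content (mgcv 1.9.3) were chosen after seeing the data. The scripts were tested on simulated data.

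The members and lists were chosen with earlier results of these data known. Named genes were all members, the targeted and title genes, every called gene of a list with 4 or fewer (otherwise the 2 largest rises and 2 largest falls), 5 preset genes, overlapping neighbours, and the 3 genes nearest in pattern to the member with the smallest p. Overlaps come from GENCODE on GRCh38, a build other than that of the files, and are given as lengths only. Promoters come from RefSeq on GRCh38.p14, with entries for all 10 members.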

Additional observations from a re-analysis of the deposited data

How the results depend on the processing

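The count of genes past the threshold (3330) was 2572 with DESeq2, 3327 with limma-voom and 4532 of 13640 with length and GC offsets, and 1826 to 4941 over fits without 1 library, highest without labelled knockdown replicate 1. The count of members (1) was 2 with length offsets (PRMT3, PRMT2), 3 with length and GC offsets (PRMT3, PRMT5, PRMT6) and 0 to 2 without 1 library. Over all tested genes 25.7% passed with length offsets and 33.2% with length and GC offsets. Without labelled knockdown replicate 1, where 2 members passed, 33.8% of all tested genes did. None of these counts of members is above the background. The list genes called (18) were 28 with length and GC offsets and 7 to 33 without 1 library. PRMT1 turned from -0.02 to 0.066 with length offsets and 0.099 with length and GC offsets, and ran from -0.112 to 0.057 without 1 library. PRMT2 was -0.15 with length offsets, and PRMT6 0.16 and PRMT5 0.14 with length and GC offsets. Without 1 library PRMT3 ran from 0.24 to 0.40, PRMT9 from 0.27 to 0.35 and CARM1 from -0.042 to 0.142. The CARM1 share difference was -0.0284 percentage points with length correction and -0.256 to 0.428 without 1 library, and that of PRMT7 -0.116 and -0.0117 to 0.0572. The log2 CLNS1A to PRMT5 ratio difference was -0.0389 to 0.0339 without 1 library. The cause of these shifts was not tested. The log2 fold changes of PRMT7 (0.0040 to 0.097), WDR77 (-0.0999 to -0.0034) and CLNS1A (0.023 to 0.089) missed the threshold in all 13 alternatives, and those of PRMT7 and WDR77 came close to 0 in some. The PRMT5 share difference was 0.0382 to 0.912 without 1 library.

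With the replicate number as a block, 1891 genes and 9 list genes were called. PRMT3 was still called in the blocked fit (edgeR adjusted p = 0.0409), and the other 9 members were not. The labels do not say that a number marks a shared culture or day, and same-numbered libraries did not deviate together (r = -0.191, 0.00821 and -0.217 for numbers 1, 2 and 3). Reads limit PRMT9 most, with 106 to 171 counts per library.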

Other observations

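MTAP lies beside CDKN2A and CDKN2B, which are often lost together with it in tumours. These 2 genes were looked at after values were seen. CDKN2A had 1 count in control replicate 2 and 0 in the other 5 libraries, and CDKN2B had 0 counts in all 6, while MTAP had 1177 to 1846 counts per library.

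PADI3, an enzyme that converts arginine to citrulline, was also singled out after its values were seen. It had 23, 9 and 22 counts in control replicates 1 to 3 and 2, 4 and 4 in labelled knockdown replicates 1 to 3, and did not pass the low-count filter.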
